A study of Drosophila melanogaster with 2 samples.

Results

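Peaks of Sry-beta were examined at 10 genes of the germ plasm and of the piRNA pathway in Drosophila melanogaster embryos, out of 13968 protein-coding genes in the annotation. The 10 genes were vas, tud, osk, pgc, gcl, piwi, aub, AGO3, spn-E and krimp. They were chosen by name from these pathways at a time when peak positions and signals of these same lists were already known, so their promoter peaks are given as a description, without a test. All 10 names matched genes of Ensembl release 115. The study used ChIP-seq, in which DNA bound to an immunoprecipitated protein is sequenced, to map the C2H2 zinc finger protein Sry-beta in whole embryos of both sexes, 0 to 12 h old, from the transgenic strain Sry-beta-GFP. Its transgene adds GFP to the C-terminus of Sry-beta, and the labels name Sry-β as the antibody's target; the promoter that drives the transgene is not given in the sources used here. There was 1 group of 2 biological replicates, numbered 2 and 4, and no other condition. The free text of the labels describes both as input controls, whereas the assay title, the antibody and the peak lists are those of a ChIP, as which they are treated here.

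Germ plasm is the maternal cytoplasm at the posterior pole of the fly egg that forms the germ cells. Oskar protein starts its assembly, Vasa and Tudor are among its core components, and gcl and pgc act in the pole cells that take it up. piRNAs are small RNAs that guide PIWI-family proteins to transposon transcripts. Aubergine and AGO3 cut these transcripts in turn in the ping-pong cycle, in a perinuclear zone called nuage that also holds Vasa, Spindle-E and Krimper, while Piwi acts in the nucleus. Pole cells are a small part of the embryo. In whole embryos, strong binding in few cells and weak binding in many cannot be told apart.

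The authors deposited 3257 peaks kept at a threshold on IDR, the irreproducible discovery rate, which rates how alike peaks rank in replicates. They also deposited 3 relaxed lists of 30000 peaks each, from the pooled libraries, replicate 2 and replicate 4. Of the peaks in the IDR list all 3257 were the highest 3257 of the pooled list, so a pooled rank of 3257 or better here means membership of the IDR list. Membership does not by itself mean that a peak ranked alike in both replicates. Of the 3257 peaks, 12 had no summit within 100 bp in either replicate. Signal is the authors' value for a peak and is compared only within a list. Its median was 292 in the IDR list, 57.7 in the pooled list, 26.1 in replicate 2 and 38.5 in replicate 4. Read counts were not used here, and the depth of the libraries is unknown. Below, a promoter summit lies within 500 bp of an annotated transcription start site (TSS), and a body summit lies elsewhere between the ends of the gene.

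The bases around 6 summits are shown because these are the strongest promoter or body peaks at vas, osk, piwi and spn-E. Each is 101 bases of the release 6 reference (RefSeq, dm6 coordinates), centred on the pooled summit, in the direction of the named gene. Capitals mark matches to any of 5 short motifs searched on both strands: TATCGATA of the DNA replication-related element, GGTCACAC of Motif 1, the palindrome TAGCTA, the core AGAGATG of a site described for the serendipity proteins and GAGAG of the GAGA element. The palindrome is one that had been picked from these data earlier.
vas promoter, chr2L:15061533-15061633, plus strand: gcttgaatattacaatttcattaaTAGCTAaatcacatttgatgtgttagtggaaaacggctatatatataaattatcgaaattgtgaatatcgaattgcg
vas intron at a vig TSS, chr2L:15068073-15068173, plus strand: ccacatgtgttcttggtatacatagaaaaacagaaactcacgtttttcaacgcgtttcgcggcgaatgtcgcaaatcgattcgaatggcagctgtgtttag
spn-E intron at the Pbp45 TSS, chr3R:15839471-15839571, plus strand: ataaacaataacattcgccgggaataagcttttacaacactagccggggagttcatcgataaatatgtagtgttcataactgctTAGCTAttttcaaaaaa
spn-E promoter, chr3R:15837364-15837464, plus strand: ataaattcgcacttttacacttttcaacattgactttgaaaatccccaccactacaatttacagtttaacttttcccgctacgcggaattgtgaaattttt
osk coding exon, chr3R:8936568-8936668, plus strand: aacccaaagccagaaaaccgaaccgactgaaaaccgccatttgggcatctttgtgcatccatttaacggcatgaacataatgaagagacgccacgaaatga
piwi intron, chr2L:10986181-10986281, minus strand: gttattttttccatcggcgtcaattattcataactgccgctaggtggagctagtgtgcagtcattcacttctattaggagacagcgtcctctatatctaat

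TAGCTA was present in the vas promoter window and in the window at the Pbp45 start inside spn-E. Across the 3257 IDR windows of the same length it occurred in 7.95%, and across the 30000 pooled windows in 2.35%. Over all 28 pooled summits at the 10 genes, TAGCTA was in 2 windows. GGTCACAC was in 2, both at the gcl promoter, against 1.97% of IDR windows and 1.06% of pooled windows. GAGAG was in 2 windows, against 9.33% and 12.5%. The other motifs, TATCGATA (3.32% of IDR windows, 1.27% of pooled windows) and AGAGATG (3.19% and 1.68%), were in 0 of the 28 windows. These matches describe letters and do not show which protein was bound. The vas promoter window had a GC content of 27.7%, the median IDR window 35.6% and the window in the osk coding exon 45.5%.

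In the IDR list 2 of the 10 genes, vas and tud, had a promoter summit, where 18.0% of all protein-coding genes had one. A promoter summit of the pooled relaxed list was found at 7 of the 10, namely vas, tud, pgc, gcl, piwi, aub and spn-E, against 53.1% of all genes. Replicate 2 alone gave 6 of 10 (54.6% of all genes) and replicate 4 alone 5 of 10 (50.4%). Among the 3257 highest peaks of each replicate, vas and tud had a promoter summit in replicate 2 (18.5% of all genes) and vas in replicate 4 (17.4%). Summits elsewhere in the body were in the IDR list at vas alone (4.64% of all genes), and in the pooled list at 8 of 10 genes (28.5%), all but pgc and krimp. Body counts are not corrected for gene length, and these genes ran from 2.61 kb for pgc to 135 kb for AGO3. In the pooled list, the summits nearest to the 500 bp limit were that of gcl at 408 bp, which was counted, and that of osk at 576 bp, which was not.

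**Figure D1:**
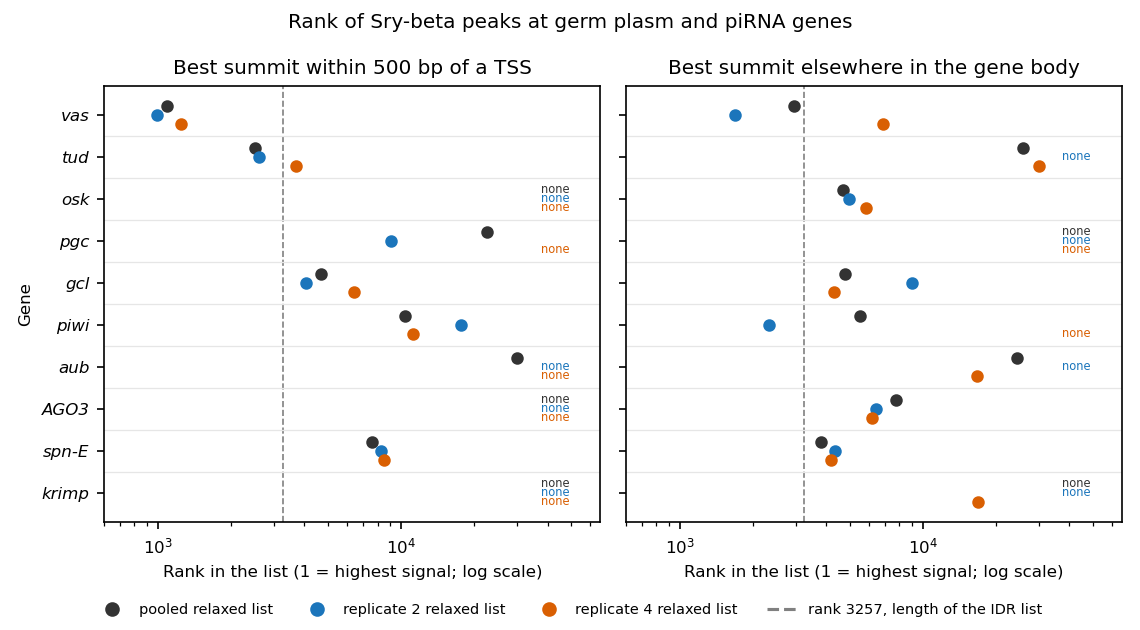
Rank (log axis, 1 is the highest signal) of the best summit within 500 bp of a TSS (left) and elsewhere in the gene body (right) for each of the 10 genes, in the pooled, replicate 2 and replicate 4 relaxed lists; the dashed line is rank 3257. The vas promoter is the strongest site, at ranks 1084, 991 and 1240, and osk, AGO3 and krimp have no promoter summit in any list.

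The strongest peak at any of these genes was at the promoter of vas (FBgn0283442), which encodes a DEAD-box RNA helicase. In dm6 it ran from base 15061467 to base 15061703 of 2L, and its summit was 73 bp upstream of the vas TSS. Its signal was 409, at rank 1084 of the IDR list and 1.40 times the list median. In replicate 2 the signal was 168 at rank 991, and in replicate 4 it was 253 at rank 1240. Both replicates thus had the peak among their 3257 highest, with summits 4 and 76 bp from the IDR summit. Of the 2518 genes with an IDR promoter summit, 58.9% had a lower promoter signal than vas. The vas TSS is also that of solo, a gene of meiotic chromosome cohesion, so the peak counts for both genes. No other TSS lay within 500 bp. The nearest summit on the far side, at the promoter of TfIIS, which encodes a transcription elongation factor, had rank 7442 in the pooled list and 3287 in replicate 2, with no replicate 4 summit within 100 bp.

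A further IDR peak lay inside vas, in an intron, from 15067878 to 15068367. Its summit was 6467 bp downstream of the vas TSS and 45 bp upstream of a TSS of vig, a gene on the opposite strand that lies wholly within vas and encodes a component of the RNA interference complex RISC. The signal was 182, at rank 2967 of the IDR list. The replicates differed here: replicate 2 had a signal of 111 at rank 1685, and replicate 4 had 63.9 at rank 6867. The deposited −log10 q was 3.87 in replicate 2, the highest value in that list, and 1.70 in replicate 4. The other 4 pooled body summits of vas were all intronic, with signals from 36.7 to 82.8 and ranks from 8657 to 29532.

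At tud (FBgn0003891), which encodes the Tudor-domain scaffold protein of polar granules, a weaker IDR peak lay on 2R from 21183015 to 21183504. Its summit was 62 bp upstream of the TSS, with a signal of 204.9 at rank 2513, or 0.703 times the IDR list median. Replicate 2 had a signal of 82.7 at rank 2606 and replicate 4 a signal of 100.1 at rank 3704. The peak was therefore among the 3257 highest of replicate 2 and not of replicate 4, and 19.1% of the genes with an IDR promoter summit had a lower promoter signal. A glycine tRNA gene, tRNA:Gly-GCC-1-13, lies 395 bp upstream of tud on the same strand. The summit was 404 bp downstream of the start of this 71 bp gene, so it lay past the tRNA gene and nearer to tud, and it still counted for both within 500 bp. Of 290 annotated tRNA genes, 14 had an IDR summit within 500 bp and 127 a pooled summit. In the body of tud 1 pooled summit was listed, in a coding exon at rank 25830. It was matched in replicate 4 at rank 29997 and not in replicate 2.

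The genes whose IDR promoter peaks had ranks closest to those of vas in the 2 replicates were CG11151 (ranks 1003 and 1242) and CG1907 (1001 and 1260). For tud they were Nubpl (2653 and 3650) and Rb97D (2655 and 3798). Likeness was the distance between log10 ranks over the 2 replicates, among 2283 genes with a summit within 100 bp in both.

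The maternal germ plasm organizer osk (FBgn0003015) had no promoter summit in any relaxed list; the nearest pooled summit was 576 bp upstream of its TSS. Its strongest own peak was in a coding exon, 1492 bp downstream of the TSS, on 3R from 8936373 to 8936862. The signal was 128 at pooled rank 4715, outside the IDR list. Replicate 2 had a signal of 53.6 at rank 4964 with a summit at the same base, and replicate 4 had 71.9 at rank 5827, 25 bp away. Both replicates placed this peak at similar ranks. On either side of osk were IDR peaks at promoters of other genes. Upstream, 3064 bp from osk, was the peak of pyd, which encodes a junctional scaffold protein, with a signal of 8818 at rank 13 (ranks 31 and 9 in replicates 2 and 4). Downstream, 273 bp past the end of osk and 56 bp upstream of a TSS of ScsbetaA, which encodes a succinyl-CoA synthetase subunit, was a peak with a signal of 173 at rank 3162 (ranks 2036 and 3428).

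**Figure D2:**
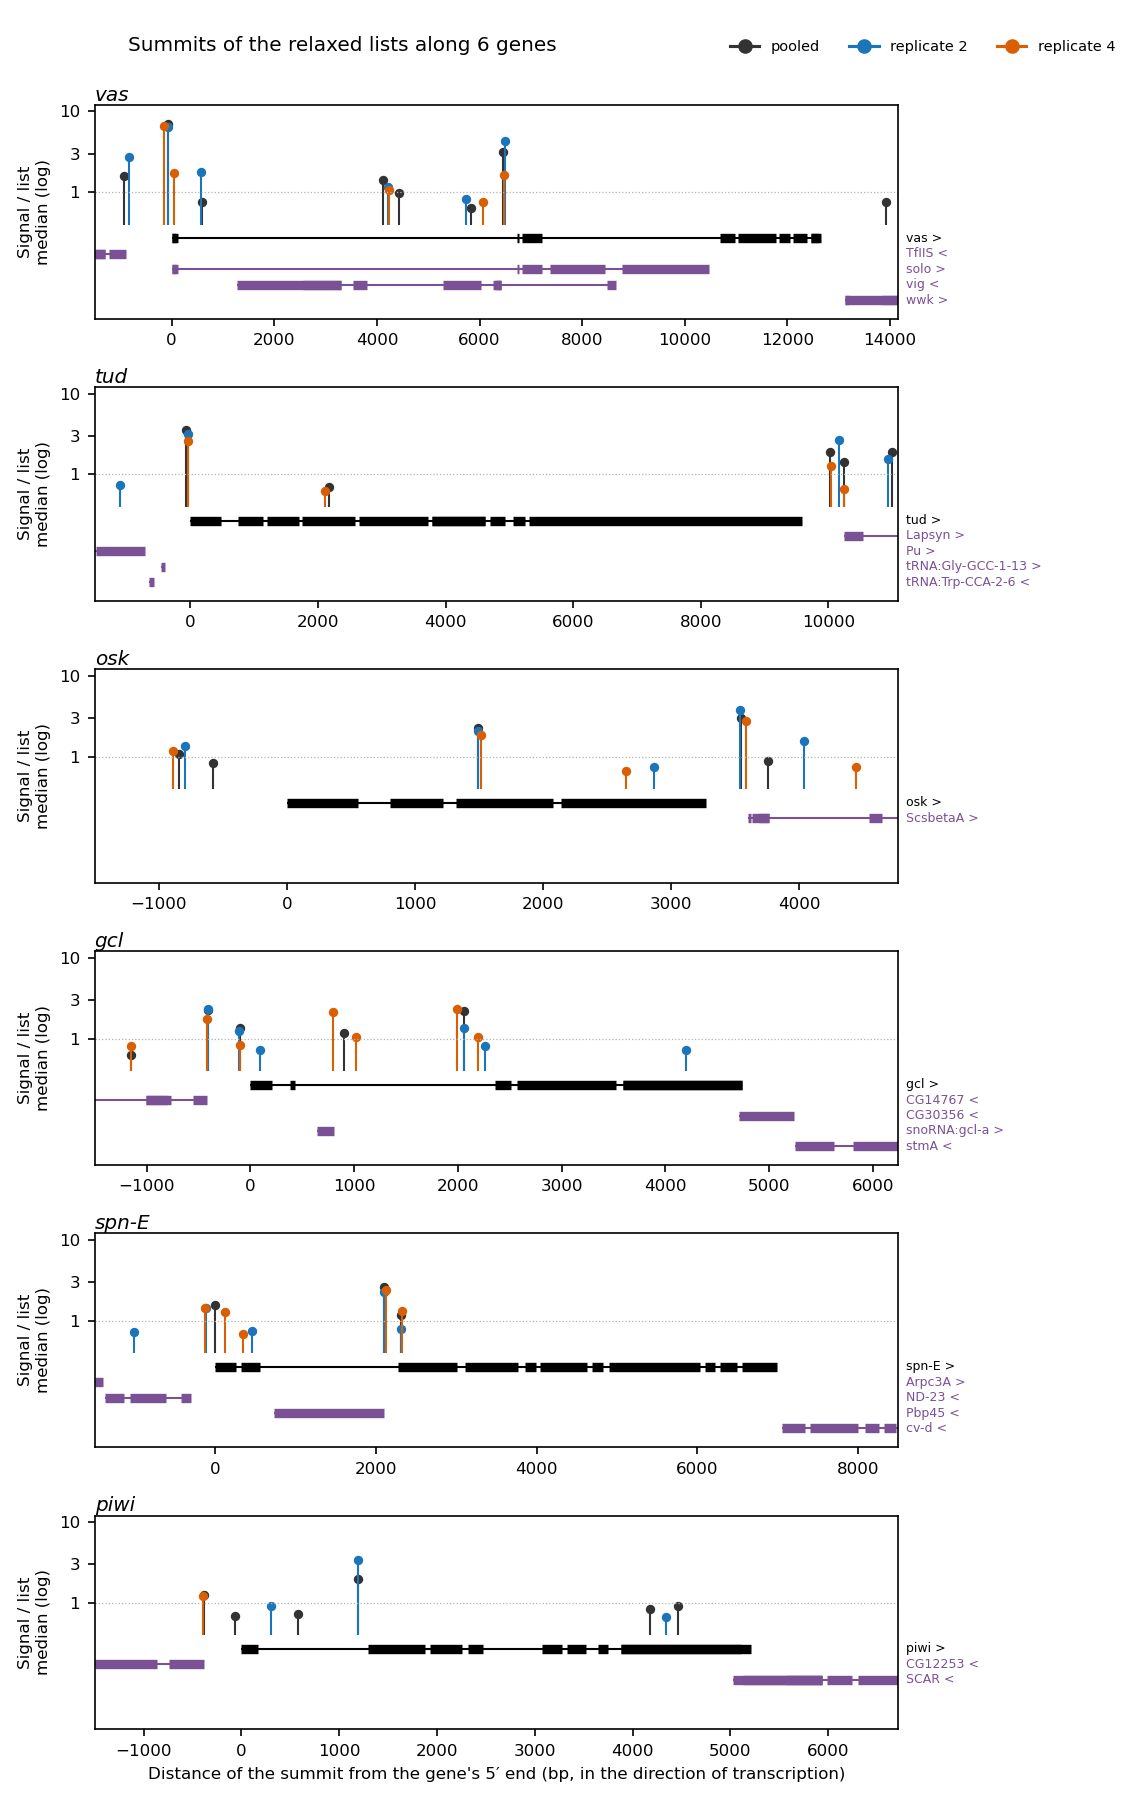
Summits of the pooled, replicate 2 and replicate 4 relaxed lists along 6 genes, by distance from the gene's 5′ end in bp (x axis) and signal over the median of the same list (y axis, log scale); thick bars are exons and thin bars gene extents, black for the gene named and purple for its neighbours, with arrows for strand (> the same, < the opposite). Peaks inside vas and spn-E stand at TSSs of vig and Pbp45, genes on the opposite strand.

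The pole cell genes gcl and pgc, both on 2R, had relaxed promoter summits that were shared with neighbouring genes. At gcl (FBgn0005695), which encodes a substrate adaptor needed for pole cell formation, the higher pooled promoter summit was 408 bp upstream of its TSS. It lay only 11 bp upstream of the TSS of CG14767, a gene on the opposite strand whose nearest TSS is 419 bp from that of gcl. The signal was 129 at pooled rank 4675, with ranks 4049 in replicate 2 and 6395 in replicate 4. A lower summit 100 bp upstream of gcl itself had a pooled rank of 9392, and ranks 10649 and 19853. These summits, 308 bp apart, are those whose windows held GGTCACAC. In the body of gcl an intronic summit 2058 bp from the TSS had a signal of 127 at pooled rank 4767, with a signal of 35.7 at rank 9043 in replicate 2 and 90.0 at rank 4304 in replicate 4. A weaker intronic one, 259 bp downstream of the start of snoRNA:gcl-a, had rank 11765. Replicate 4 listed a summit within the snoRNA gene, 145 bp past its start, at rank 4829, and replicate 2 had none within 811 bp of the pooled one. The nearest IDR summit to gcl was 55.0 kb away.

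At pgc (FBgn0016053), whose small peptide represses transcription in pole cells, the only pooled summit was 256 bp upstream of a TSS and 224 bp upstream of the start of CG34207. Its signal was 44.1 at rank 22645. Replicate 2 had a signal of 35.5 at rank 9109, and replicate 4 had no summit within 5715 bp. No summit of any list lay in the rest of pgc, and its nearest IDR summit was 12.6 kb away.

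Among the PIWI-family genes, piwi (FBgn0004872) had the strongest peak, in an intron and in a single replicate. The pooled peak spanned bases 10985986 to 10986475 of 2L. Its summit was 1189 bp downstream of the TSS, and its signal was 114 at rank 5503. In replicate 2 the signal was 89.5 at rank 2327, within the 3257 highest peaks of that list. In replicate 4 the nearest summit was 1584 bp away. Of the 3257 highest peaks of replicate 2, 40 (1.23%) had no replicate 4 summit within 1000 bp, and of those of replicate 4, 5 (0.154%) had no replicate 2 summit that near. Annotated transposable elements cover 10.6% of piwi, and the summit was 452 bp upstream of the start of an annotated INE-1 element; the part of repeats in the difference between replicates was not tested. The promoter summits of piwi were weaker. The higher was 383 bp upstream of piwi and 3 bp upstream of CG12253, a divergent neighbour, with a signal of 73.0 at pooled rank 10398. It was matched in replicate 4 at rank 11218 and not in replicate 2.

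The gene aub (FBgn0000146) lies 10398 bp from piwi on 2L and had the weakest promoter summit of the 7. It was in a coding exon 228 bp downstream of the inner of 2 TSSs, with a signal of 36.5 at pooled rank 29851, and had no match within 100 bp in either replicate. The nearest IDR peaks to these genes were at other promoters. For piwi it was 14 bp upstream of TTLL4A, 1967 bp away, with a signal of 194 at rank 2711. For aub it was 23 bp inside RpL9, a ribosomal protein gene 2654 bp away, with a signal of 246 at rank 2017.

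AGO3 (FBgn0250816), on 3L, was the longest of the genes at 135 kb, and 70.5% of it is covered by annotated transposable elements. It had no promoter summit in any list, and its nearest IDR summit was 676 kb away. The pooled list held 3 summits in its introns, 0.222 per 10 kb. Over all protein-coding gene bodies it held 2.12 per 10 kb, counting those within 500 bp of a TSS too. Their signals were 89.3, 68.1 and 64.0, at ranks 7795, 11542 and 12722. The highest of the 3 was matched in replicate 4 at rank 6179 and not in replicate 2. The lowest, 148 bp inside an F element, was matched in both at ranks 6441 and 27559. The part of repeats in the low number of summits was not tested.

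The remaining nuage genes differed from each other. At spn-E (FBgn0003483), which encodes an RNA helicase with a Tudor domain, the strongest peak was not at its own start. It spanned bases 15839276 to 15839765 of 3R, and its summit was in an intron 2102 bp downstream of the spn-E TSS and 6 bp upstream of the TSS of Pbp45. Pbp45 lies wholly within spn-E on the opposite strand and encodes a protein of snRNA gene transcription. The signal was 150 at pooled rank 3826, just outside the IDR list, whose lowest signal was 169. Replicate 2 had a signal of 58.4 at rank 4338 and replicate 4 a signal of 91.4 at rank 4205, so the ranks were close. At the spn-E promoter the pooled summit was 5 bp upstream of the TSS, with a signal of 91.1 at rank 7585. The nearest replicate summits, 115 and 123 bp away, had ranks 8297 and 8484. The TSS of ND-23, which encodes a complex I subunit and is transcribed away from spn-E, lay 297 bp from this summit. The nearest IDR summit to the spn-E TSS was 27.0 kb away.

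At krimp (FBgn0034098), which encodes a Tudor-domain protein, the pooled list had no summit in the promoter or body, and the nearest was 9292 bp from the TSS. Replicate 4 listed 1 summit in its body at rank 16950, and replicate 2 listed none. The nearest IDR summit, 9987 bp away, was that of CG15706, with a signal of 741 at rank 658.

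**Figure D3:**
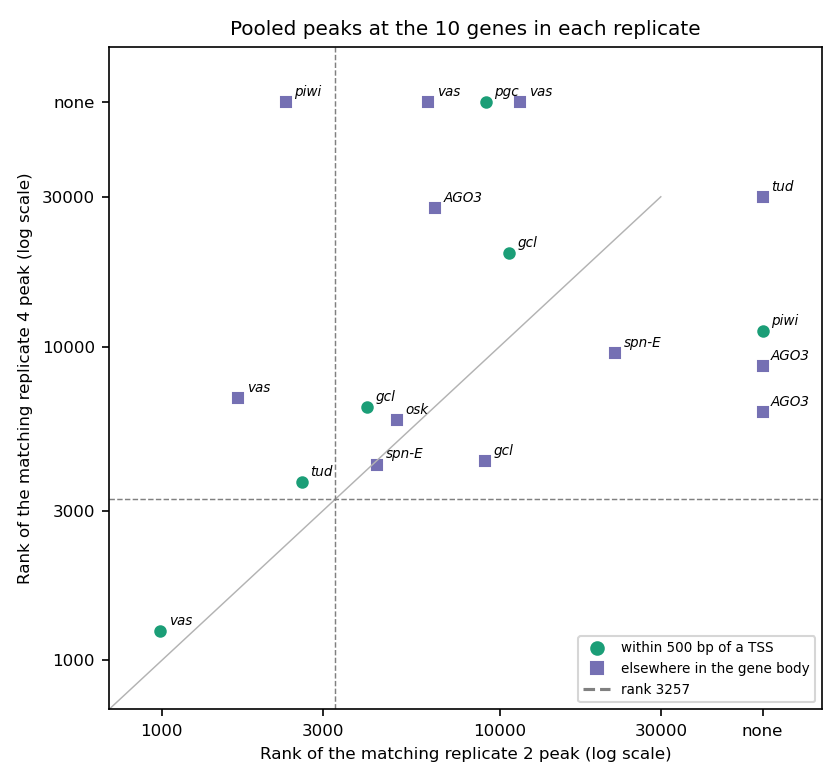
Ranks in replicate 2 (x axis) and replicate 4 (y axis), both log scale, of the summits within 100 bp of each pooled summit at the 10 genes; circles are promoter summits, squares body summits, "none" marks no match, dashed lines mark rank 3257, and summits matched in neither replicate are not drawn. Only the vas promoter lies within the 3257 highest of both replicates.

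How often a peak was found in both replicates followed its pooled rank. All 3 IDR peaks at these genes had a summit within 100 bp in each replicate, as 86.7% of all IDR peaks did. Of 9 pooled peaks at these genes ranked from 3258 to 10000, 5 were matched in both replicates, against 60.4% of all 6743 peaks of those ranks. Of 16 ranked lower, 2 were matched in both, against 14.7% of 20000. In neither replicate were 9 of the 16 matched, against 5599 of the 20000, a larger share at these genes. The shares matched in both replicates lie near those of all peaks of like rank. Many of the weaker summits named above moved or were missing between libraries. Pooled summits between the ends of the gene, here also those within 500 bp of a TSS, were counted per 10 kb. They ran from 0 at pgc and krimp to 7.67 at piwi, with 3.95 at vas, beside 2.12 over all protein-coding genes. The value at piwi rests on 4 pooled summits, where replicate 2 listed 2 body summits and replicate 4 listed 0.

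A wider set of 77 genes in 6 lists, written from general knowledge with earlier results of these data known, gave 19 genes with an IDR promoter summit (24.7%, beside 18.0% of all protein-coding genes) and 61 with a pooled one (79.2%, beside 53.1%). Replicate 2 alone gave 69 (89.6%, beside 54.6% of all genes) and replicate 4 alone 58 (75.3%, beside 50.4%). The median IDR signal of the 19 genes was 253. Genes of germ plasm assembly and osk mRNA localization had an IDR promoter summit at 6 of 21 (28.6%). The highest were exu, an mRNA localization factor, with a signal of 304, vls, a methylosome subunit needed to anchor Tudor, with 243, tsu of the exon junction complex with 226 and orb, a regulator of translation, with 213. For the wider genes, a replicate rank is that of the highest summit within 500 bp of a TSS in that list. It was not matched to the IDR summit. In the 2 replicates exu ranked 1497 and 1973, vls 1526 and 2147, tsu 1521 and 2601, and orb 1690 and 3844. The orb summit was nearer to the TSS of Cdc16, at 67 bp, than to that of orb, at 278 bp, and the exu summit, 44 bp from exu, was also 165 bp from galla-1. Of 10 genes of germ cell fate and migration 3 had one (30%). The highest were smg, a translational repressor of nanos mRNA, with 717 (ranks 464 and 986) and the lipid phosphatase gene wun with 328 (ranks 1120 and 1892). The smg summit was 144 bp from smg and nearer to CG5087, at 51 bp.

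Within the piRNA lists a few genes stood far above vas. The share of genes with an IDR promoter summit was 18.2% in the list of the ping-pong cycle and nuage. It was 33.3% for primary biogenesis and end processing, 16.7% for nuclear silencing and 21.4% for cluster transcription and export. Over all protein-coding genes it was 18.0%. Of 11 genes listed here under the ping-pong cycle and nuage 2 had an IDR promoter summit. These were tapas, a Tudor-domain gene, with a signal of 5320 at rank 82 and fs(1)Yb with 170 at rank 3245. Whether each listed gene acts in that process was not checked. The tapas peak was 146 bp upstream of its TSS, with no other gene's TSS within 500 bp. The highest tapas promoter summits of replicates 2 and 4 ranked 85 and 83. For fs(1)Yb the replicate ranks were 1771 and 6024. Its IDR summit was 28 bp from the TSS of CG2701 and 169 bp from that of fs(1)Yb. Of 9 genes of primary biogenesis and end processing 3 had one, led by Nbr, which encodes the exonuclease Nibbler, with 966. Its highest promoter summit ranked 1260 in replicate 2 and 463 in replicate 4. The IDR summit was 303 bp from Nbr and 255 bp upstream of Noc2. Hsp83, a chaperone gene, had 518 (ranks 503 and 1747) and papi 253 (ranks 1406 and 2368). Of 12 genes of nuclear silencing 2 had one, ctp, a dynein light chain gene, with 3556 at rank 192 (ranks 123 and 210) and Su(var)2-10, a SUMO ligase gene, with 285 (ranks 4485 and 1362). Of 14 genes of cluster transcription and export 3 had one. These were Nxf3, an export factor, with 709 (ranks 1859 and 590), the Rhino partner gene cuff with 197 (ranks 1763 and 4566) and the exportin gene emb with 173 (ranks 2826 and 3270). The Nxf3 summit was 86 bp upstream of both Nxf3 and ssp2 and 415 bp from Meics. The emb summit was 72 bp from emb and 221 bp from fy. The cuff summit was nearer to CG13185, at 143 bp, than to cuff, at 339 bp. The ctp summit was 193 bp upstream of ctp and 358 bp upstream of the start of an annotated HMS-Beagle transposable element.

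**Figure D4:**
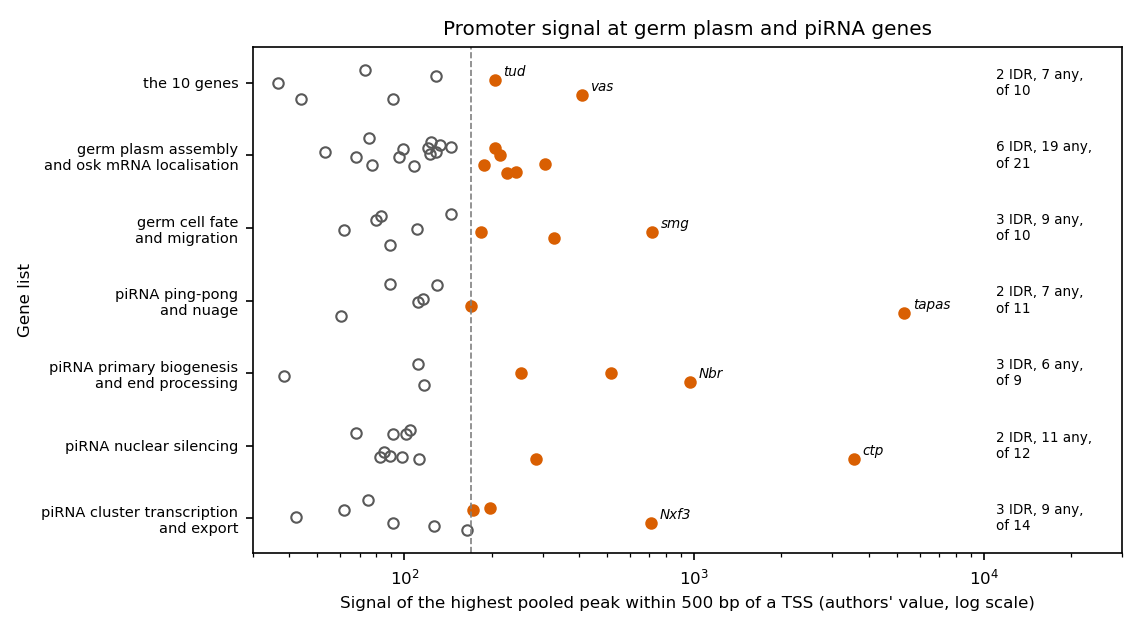
Signal of the highest pooled peak within 500 bp of a TSS (x axis, log scale) for the 10 genes and the 6 wider lists; filled points are IDR peaks, the dashed line is the lowest IDR signal of 169, and the counts at the right give genes with an IDR summit and with any pooled summit. tapas at 5320 and ctp at 3556 lie far above vas at 409.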

How the data were processed

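ChIP-seq peak lists of 2 replicates were analysed. The deposited readme texts say that the peaks of a replicate were called on its own alignment against 1 control common to both, that pooling joined both libraries, and that all 3 relaxed lists entered the IDR step (assembly dm6). The aligner, peak caller and IDR threshold were not given in the sources used here. Signal is the authors' score per peak, of unstated scale, and the authors also deposited a −log10 q value, which was 3.84 in all IDR peaks. Widths were mostly fixed (490 bp for the pooled peaks) and do not measure extent.

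Everything else was computed with Python 3.11.15, numpy 2.4.6 and pandas 2.3.3, from Ensembl release 115 genes and the release 6 genome. Summits past a peak's end (1 to 3 per list) were moved to its last base. Summits within 100 bp were matched between lists, but not for the wider genes. Motifs were searched 50 bp on either side of a summit. Counting was tested on simulated data. The 10 genes, the wider lists and the motifs were chosen with earlier results of these data known. Genes named were the 10, the genes sharing their peaks, up to 4 per wider list by signal (1 gene is not reported here), and the nearest by rank; pyd, ScsbetaA, TfIIS, TTLL4A, RpL9 and CG15706 were named after their values were seen. With 1 group no test was run, and each main count stands beside the share of all protein-coding genes. All 77 wider symbols matched, 4 through a synonym. Alternatives covered the window, whole peaks, gene 5′ ends, a signal threshold, the pooled list and each replicate.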

Additional observations from a re-analysis of the deposited data

How the results depend on the processing

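The 2 genes with an IDR promoter summit, vas and tud, were the same with windows of 250 or 1000 bp, with whole peaks in place of summits, with gene 5′ ends only and with the 3257 highest pooled peaks. With IDR peaks at or above the median signal only vas was left, so the count was 1, the count of genes with an IDR body summit was 0, the share of all protein-coding genes was 10.3% and the count over the wider lists was 8. Leaving out a replicate gave 1 to 2 of the 10 genes at promoters and 0 to 2 in bodies. The share of all protein-coding genes at promoters was then 17.4% without replicate 2 and 18.5% without replicate 4. With both replicates and other windows it was 15.0% at 250 bp and 20.1% at 1000 bp. For bodies no such share is given here. Without replicate 2 the vas intron peak and the tud promoter peak were below the 3257 highest of replicate 4, and without replicate 4 the piwi intron peak was added. The vas signal over the median of the 3257 highest peaks of the remaining replicate was 1.28 without replicate 2 and 1.48 without replicate 4. For tud it was 0.730 without replicate 4, and without replicate 2 no value could be had. Pooled promoter summits were found at 5 to 8 of the 10 genes over all alternatives run. The gene pgc was lost at 250 bp, aub with 5′ ends only, and osk was gained at 1000 bp and with whole peaks. Over all protein-coding genes the share was 50.4% without replicate 2 and 54.6% without replicate 4. For the other alternatives it is not given here, so changes at the 10 genes and general ones cannot be told apart. The cause of these differences was not tested. No read counts were used, so depth sets no limit that can be stated.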

Other observations

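Of the 77 wider genes, 7 had no promoter summit in any relaxed list, namely shu, BoYb, Gasz, Hen1, daed, moon and Boot, as did osk, AGO3 and krimp among the 10. These names were picked after their values were seen. All 7 belong to piRNA lists, 3 of them to the 9 genes of primary biogenesis and end processing. Another 2 are among the 11 genes of the ping-pong cycle and nuage, and 2 among the 14 of cluster transcription and export. The lists of nuclear silencing, germ plasm assembly and germ cell fate had 0. Over all protein-coding genes 37.5% had no such summit, more than in each of these lists, and of the 10 genes 30%. No difference between lists was tested.

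The germ cell gene nanos, whose mRNA is held in germ plasm, had a pooled promoter signal of 83.1 at rank 8633. Its highest promoter summit ranked 19325 in replicate 2 and 4559 in replicate 4. The gene is named here after its value was seen.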
